A study of Homo sapiens with 45 samples.

Results

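The regions described here are 6675 bins of 50 kb on the autosomes of HCT116 cells, a human colon cancer line, that lay in H3K27me3 domains and away from the nuclear lamina. They were chosen by measured values. Of 57494 bins cut from GRCh38 position 0 on chromosomes 1 to 22, a bin was kept when at least 50% of its bases lay in the deposited H3K27me3 domains of both control and HNRNPK-depleted cells, and no base lay in the lamin B1 domains of either. The kept bins made up 11.6% of all autosomal bins and 333.6 Mb. They were 45.2% of the 14775 bins that met the H3K27me3 share, and the other 8100 touched a lamin B1 domain in at least 1 list.

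The cells received 25 nM of either a nontargeting control siRNA or an siRNA against HNRNPK, an RNA-binding protein, and were collected after 72 hours. Chromatin immunoprecipitation was done for H3K27me3 (2 control and 2 knockdown libraries), lamin B1 (3 and 3), H3K9me3 (3 and 3) and H3K9me2 (3, in control cells). Each antibody and siRNA is represented by 1 list of called domains, so no domain value has a replicate or a known read depth. RNA was sequenced from 4 control libraries (siNTC5) and 4 HNRNPK siRNA libraries, with replicates 1 and 2 of each made with the Illumina TruSeq stranded mRNA kit and replicates 3 and 4 with the Illumina Stranded mRNA, Ligation kit. A further 2 nontargeting libraries (Scramble) differed in purification kit and were used in an alternative fit alone. All groups share 1 cell line, and nothing says that replicates were separate cultures, so p-values measure the spread between these libraries, which may be technical.

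H3K27me3 is written by Polycomb repressive complex 2 (PRC2), whose catalytic subunit is EZH2 or EZH1, and is read by CBX proteins of Polycomb repressive complex 1 (PRC1). It covers genes of developmental regulators and of other cell lineages that a cell does not use, and it can spread over long stretches of chromatin. The nuclear lamina is a layer of lamin proteins under the inner nuclear membrane, and lamin B1 contacts mark chromatin at the nuclear rim, where H3K9me2 and H3K9me3 are the usual marks. Bins with H3K27me3 and no lamin B1 domain carry a repressive mark and were not scored at the rim in either condition.

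Promoter sequences are shown for 6 genes so that the letters under the largest changes in RNA can be seen: the first 3 of the 10 largest rises and the first 3 of the 10 largest falls that have a window in the table with its start in a kept bin. Each is the RefSeq window on GRCh38.p14 from 250 bases before to 50 after the 1 start that the table lists for the gene, 5′ to 3′ on the strand of the gene, with CpG dinucleotides in capitals. The listed starts of FGD5 and SNCAIP lie inside the RefSeq gene body, downstream of its first base, and those of VWA2, F10, NUDT7 and RNASE1 lie at its 5′ end. The windows lie at chr10:114239004-114239303, chr3:14818712-14819011, chr5:122390839-122391138, chr13:113122549-113122848, chr16:77722264-77722563 and chr14:20802795-20803094, in the order printed; RNASE1 is on the minus strand and the other five on the plus strand.
VWA2: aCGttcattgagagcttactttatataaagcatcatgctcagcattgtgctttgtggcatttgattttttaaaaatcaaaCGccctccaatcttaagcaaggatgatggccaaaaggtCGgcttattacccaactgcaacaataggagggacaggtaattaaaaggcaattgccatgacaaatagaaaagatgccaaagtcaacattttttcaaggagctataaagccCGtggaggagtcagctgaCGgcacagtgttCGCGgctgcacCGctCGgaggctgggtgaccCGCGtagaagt
FGD5: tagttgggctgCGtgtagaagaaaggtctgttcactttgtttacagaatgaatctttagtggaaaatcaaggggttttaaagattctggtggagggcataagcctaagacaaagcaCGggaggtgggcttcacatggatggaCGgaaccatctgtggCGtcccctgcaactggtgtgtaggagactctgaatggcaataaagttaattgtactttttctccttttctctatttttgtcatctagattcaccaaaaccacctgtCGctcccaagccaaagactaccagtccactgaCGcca
SNCAIP: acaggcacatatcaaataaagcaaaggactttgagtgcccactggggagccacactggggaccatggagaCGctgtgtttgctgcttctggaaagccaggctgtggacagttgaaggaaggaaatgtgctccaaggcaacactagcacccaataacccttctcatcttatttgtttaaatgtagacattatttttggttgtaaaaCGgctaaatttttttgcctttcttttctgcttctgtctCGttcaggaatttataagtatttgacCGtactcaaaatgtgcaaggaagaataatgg
F10: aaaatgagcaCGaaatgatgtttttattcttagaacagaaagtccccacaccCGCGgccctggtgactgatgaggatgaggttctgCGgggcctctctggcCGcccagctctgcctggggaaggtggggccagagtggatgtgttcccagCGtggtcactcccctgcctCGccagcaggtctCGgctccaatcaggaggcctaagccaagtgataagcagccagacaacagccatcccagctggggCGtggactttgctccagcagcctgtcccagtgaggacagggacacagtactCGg
NUDT7: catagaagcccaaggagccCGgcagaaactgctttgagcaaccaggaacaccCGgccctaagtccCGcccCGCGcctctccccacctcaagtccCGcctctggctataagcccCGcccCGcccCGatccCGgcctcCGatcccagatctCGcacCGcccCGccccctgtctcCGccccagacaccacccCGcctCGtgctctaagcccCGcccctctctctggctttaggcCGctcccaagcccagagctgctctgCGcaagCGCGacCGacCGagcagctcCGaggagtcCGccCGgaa
RNASE1: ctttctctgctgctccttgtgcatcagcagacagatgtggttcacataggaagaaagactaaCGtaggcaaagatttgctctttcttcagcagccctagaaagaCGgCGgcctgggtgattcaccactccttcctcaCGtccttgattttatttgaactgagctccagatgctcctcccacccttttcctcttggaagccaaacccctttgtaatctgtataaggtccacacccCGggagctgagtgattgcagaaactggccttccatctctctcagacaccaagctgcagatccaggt

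The 6 windows varied in CpG content within both directions. Those of the genes that rose held 11 CpG in VWA2, 6 in FGD5 and 4 in SNCAIP. Those of the genes that fell held 10 in F10, 27 in NUDT7 and 5 in RNASE1. The ratio of observed to expected CpG, which corrects for base composition, was 0.729, 0.391 and 0.304 in the first group and 0.379, 0.857 and 0.275 in the second. A window was called CpG-rich at a GC content of at least 50% and a ratio of at least 0.6, and of the 6 printed that of NUDT7 was. Among windows that start in the bins, 192 of 278 (69.1%) were CpG-rich for coding genes called higher and 179 of 227 (78.9%) for those called lower, against 80.3% for all tested autosomal coding genes. Windows were found for 75.8% of the coding genes of the bins, which is too few to compare promoters between groups of genes, and these shares support no such comparison.

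The bins were densely covered by the mark that chose them and lay at all distances from the lamina. As a description of the rule, 5511 of the 6675 bins (82.6%) lay entirely in H3K27me3 domains of both lists. Just inside the threshold were 239 bins whose lower share was 50% to under 60%, and just outside it were 224 bins without lamin B1 whose lower share was 40% to under 50%. The distance to the nearest lamin B1 domain of either list had a median of 555 kb, with quartiles of 140 and 1580 kb and a largest value of 9800 kb. It was under 50 kb for 855 bins (12.8%) and over 1 Mb for 2418 bins (36.2%). The authors' domain score, whose unit is not stated, had a median of 1.04 over the H3K27me3 of these bins in control cells, against 1.46 over H3K27me3 bins at the lamina. In the knockdown list the medians were 0.993 and 1.5. The bins at the lamina, called on-lamina bins from here on, are the 7425 that met the same H3K27me3 share with at least 50% of bases in control lamin B1 domains. Lamin B1 domains covered 97.9% of their length in the control list and 47.2% in the knockdown list, so the name holds for control cells alone.

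The bins were unevenly spread over the chromosomes and joined into long runs. They made up 21.4% of the bins of chromosome 20, the highest share, and 6.78% of those of chromosome 4, the lowest. On chromosome 19, 81.4% of the bins with stable H3K27me3 were free of lamin B1, against 29.9% on chromosome 6. Adjacent bins formed 1490 runs with a median of 3 bins. Of these, 285 (19.1%) were single bins, and 153 runs of at least 10 bins held 2018 bins (30.2%).

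The longest run spanned 37 bins on chromosome 5, chr5:173950001-175800000, and held the homeobox gene MSX2, the dopamine receptor DRD1, the histamine receptor HRH2, the mitochondrial serine transporter SFXN1, and NSG2 and C5orf47. The next spanned 29 bins, chr7:28150001-29600000, around CREB5, a transcription factor that binds cyclic AMP response elements, with CPVL, CHN2, PRR15 and TRIL. The third, of 26 bins at chr1:29300001-30600000, held no protein-coding gene. The fourth, of 23 bins at chr1:17750001-18900000, held the muscle lineage factor PAX7, the sweet taste receptor TAS1R2, IGSF21, ACTL8, KLHDC7A and ALDH4A1. The fifth, of 21 bins at chr14:21500001-22550000, held METTL3, SALL2, 4 olfactory receptor genes and variable segments of the T cell receptor. The edges of these runs were between 35 kb (the run with PAX7) and 3045 kb (the run on chromosome 1 without coding genes) from the nearest lamin B1 domain.

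Away from the lamina these H3K27me3 bins carried little H3K9 methylation in control cells. Control H3K9me2 domains covered 2.03% of their length, against 54.0% of the on-lamina bins and 22.4% of all autosomal bins. Control H3K9me3 domains covered 3.02%, against 19.3% and 20.8%. In the 30539 bins with neither H3K27me3 nor lamin B1, the shares were 0.814% for H3K9me2 and 4.95% for H3K9me3. No base of either H3K9 mark in any list fell in 5548 of the kept bins (83.1%). That share was 86.7% in bins with neither H3K27me3 nor lamin B1, 37.8% in on-lamina bins and 66.6% over all autosomal bins. H3K9me2 and H3K9me3 played no part in the choice of bins, and with 1 list per condition the differences between classes could not be tested against replicates.

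In the knockdown list more of these bins lay in H3K9me3 domains. The covered share went from 3.02% to 10.9%, a ratio of 3.60, and was higher on 22 of 22 chromosomes. The ratio was 1.26 for on-lamina bins (19.3% to 24.3%), 2.03 for bins with neither H3K27me3 nor lamin B1 (4.95% to 10.1%) and 1.22 for all autosomal bins (20.8% to 25.5%). Bins with at least 50% of their bases in H3K9me3 numbered 214 in the control list and 758 in the knockdown list.

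**Figure D1:**
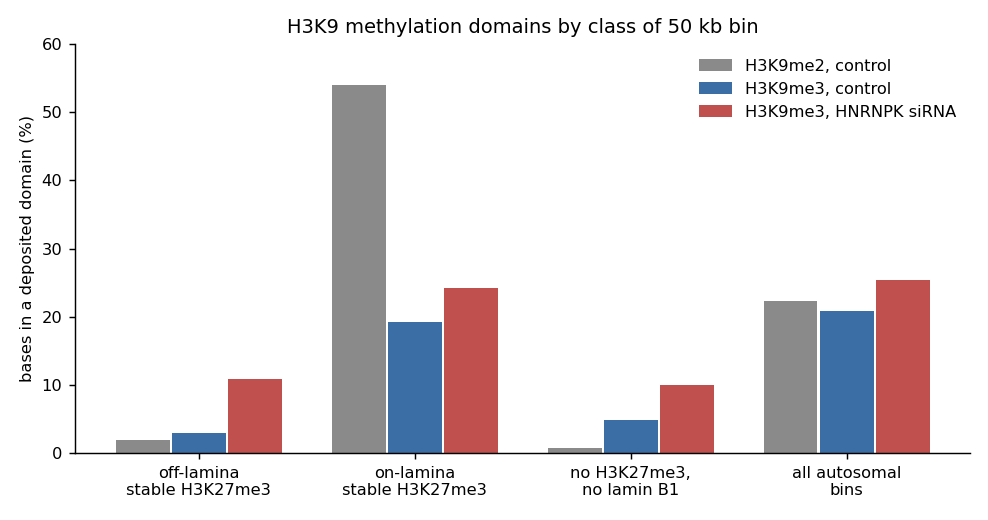
Percent of bases in deposited H3K9me2 and H3K9me3 domains, by class of 50 kb bin; each bar is 1 list, with no replicate. The off-lamina H3K27me3 bins have low bars for both control marks (2.03% and 3.02%), and their H3K9me3 bar is higher in the knockdown list (10.9%).

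A total of 508 kept bins (7.61%) went from no H3K9me3 base in the control list to at least 50% in the knockdown list. They were 7.94% of the 6400 kept bins that held no H3K9me3 in the control list. The same share was 5.97% in on-lamina bins, 5.19% in bins with neither and 5.72% over all autosomal bins. No kept bin went the other way, while 26 on-lamina bins, 26 bins with neither and 64 autosomal bins in all did. Bins at least 50% in control H3K9me3, which could go that way, numbered 214, 1450, 1558 and 12056 in these classes. The result of 0 of 214 kept bins is therefore near the background of 64 of 12056. The 508 bins fell into 299 separate stretches, of which 150 were 1 bin long. The longest, of 6 bins at chr2:240050001-240350000, held the olfactory receptor OR6B3, COPS9 and OTOS. Stretches of 5 bins lay at chr11:63300001-63550000, with the transporter genes SLC22A9 and SLC22A10 and the phospholipase genes PLAAT4 and PLAAT5, at chr14:72150001-72400000 within RGS6, a regulator of G protein signalling, at chr14:104250001-104500000, and at chr1:29950001-30200000. The last lay inside the run without coding genes, where the H3K9me3 share went from 13.1% to 59.6%. In the run with PAX7 it went from 11.3% to 43.0%, and in the longest run, around MSX2, from 0% to 11.6%. The runs around CREB5 and METTL3 held none in either list.

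**Figure D2:**
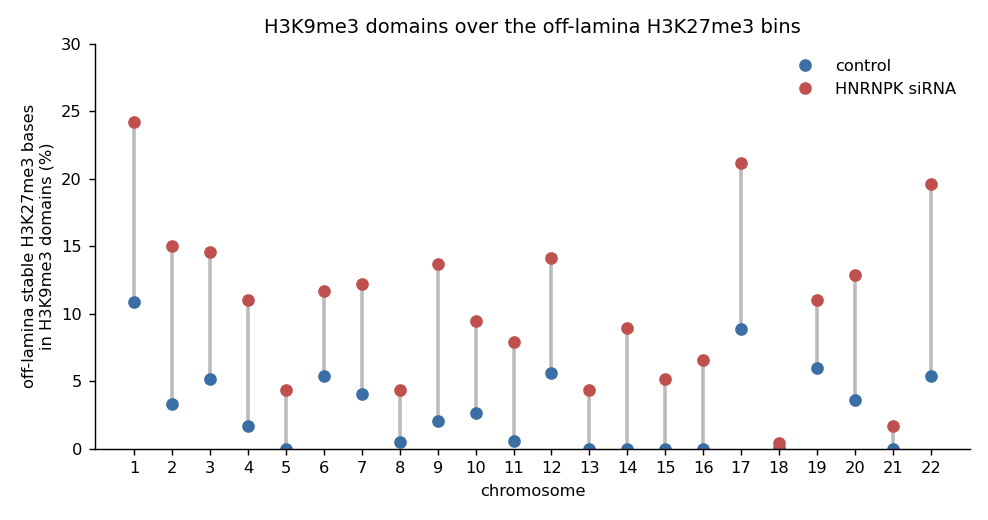
Percent of the length of off-lamina H3K27me3 bins in H3K9me3 domains, by chromosome, in the control list and the knockdown list; there is 1 list of each. The knockdown point is above the control point on 22 of 22 chromosomes, from 0.4% on chromosome 18 to 24.2% on chromosome 1.

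The H3K9me3 share of the bins differed widely between chromosomes. Chromosomes 1, 17 and 22 had the highest knockdown shares, 24.2%, 21.2% and 19.6%, from control shares of 10.9%, 8.89% and 5.38%. Chromosome 18 had the lowest knockdown share, 0.4%, from 0.0364%. On chromosomes 5, 13, 14, 15, 16 and 21 the control share was 0%, and the knockdown shares there ran from 1.66% on chromosome 21 to 8.99% on chromosome 14.

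The bins were not gene deserts. A total of 8296 RefSeq genes had at least 50% of their body there, of which 2341 were protein-coding, 3014 long noncoding RNAs and 1980 pseudogenes. Coding genes, counted in this way, stood at 7.02 per Mb, against 2.71 in on-lamina bins, 8.67 in bins with neither and 6.65 over all autosomal bins. Antigen receptor segments were common: 143 of 248 variable segments (57.7%) and 92 of 98 joining segments (93.9%) lay there. The share of variable segments differed between loci. On chromosome 22, which holds the immunoglobulin lambda locus, they included 37 of 42 variable and 7 of 7 joining segments. On chromosome 7, with the T cell receptor beta and gamma loci, they included 36 of 55 and 18 of 18. On chromosome 14, with the immunoglobulin heavy chain and T cell receptor alpha and delta loci, they included 49 of 98 variable and 62 of 68 joining segments, and on chromosome 2, with the immunoglobulin kappa locus, 21 of 45 and 5 of 5.

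Families of lineage regulators differed widely in how many of their genes lay at least 50% in these bins. Over all protein-coding genes that share was 12.2% (2235 of 18332). It was 60% for GATA factors (GATA2, GATA3 and GATA4 of 5), which direct blood, immune and heart lineages, and 38.5% for homeobox genes outside the HOX clusters (40 of 104). Those 40 included the eye and brain factors OTX2, SIX3 and VAX1, the heart and thyroid factors NKX2-5 and NKX2-1, and PAX2, PAX5, PAX7 and PAX9. Neural basic helix-loop-helix factors had 8 of 22, among them NEUROG1, NEUROG3, OLIG1 and OLIG2, and forkhead factors had 14 of 49, among them FOXA2 and FOXF1. Of secreted signals, 12 of 67 did, including SHH, IHH, BMP7 and WNT6. TBX factors had 3 of 12 (25%) and SOX factors 3 of 18 (16.7%). Voltage-gated and related channels had 37 of 130, collagens 11 of 42, interleukins and chemokines 34 of 116, and olfactory receptors 68 of 382.

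Some other families had few or none of their genes in the kept bins. Of 39 HOX cluster genes 1, HOXC13, lay there, and 3 had at least 50% of their body in H3K27me3 domains of both lists wherever they lay. None of 17 KLF genes, 10 HES and HEY genes or 53 clustered protocadherins lay in the kept bins. Zinc finger genes with a numbered ZNF symbol had 24 of 465 (5.16%), and claudins 1 of 22. For olfactory receptors 144 of 382 lay in on-lamina bins, more than the 68 off the lamina. All of these shares describe where the genes lie and have no test.

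Most genes of the bins gave few or no reads. Of 28278 names in the count table, 3509 had at least 50% of their body in the kept bins, and 1177 of these (33.5%) were at 0 counts in all 8 libraries, against 23.7% of all names. After the filter on low counts 922 (26.3%) could be tested, against 10.9% in on-lamina bins, 62.8% in bins with neither and 49.3% of all names. Of the 922, 750 reached the filter's level in at least 3 of 4 libraries of both groups, 37 in the control group alone, 127 in the knockdown group alone and 8 in neither. Those 127 are 13.8% of the tested genes of the bins, against 4.31% for all tested genes. Such a gene was tested because it was higher in the knockdown, so counts of calls and medians below are no independent measure of direction. Genes of the bins took 2.95% to 3.15% of the counts in control libraries and 3.22% to 3.35% in knockdown libraries, and these ranges did not overlap. A large part of that rise came from 1 gene, HSP90AB1, described below. In RNA from whole cultures, a change in the number of cells that express a gene and a change in RNA per cell cannot be told apart.

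A few genes inside these repressive domains were highly expressed. On a scale of CPM (read counts scaled to a common library size by TMM) per kb of gene body, the first 5 in control libraries were HSP90AB1 (804), SNORA104 (94.5), COX4I1 (53.1), HBE1 (42.7) and CHCHD2 (42.5). HSP90AB1 encodes a constitutive heat shock protein 90, COX4I1 a subunit of cytochrome c oxidase and CHCHD2 a mitochondrial protein. SNORA104 overlaps ADGRE3 and a pseudogene of ITGB1, so its reads are uncertain. The starts of HSP90AB1 and COX4I1 lay outside the kept bins, and that of CHCHD2 inside. HSP90AB1 rose by a log2 change of 0.31 ± 0.04 (SE), and COX4I1 by 0.12. The mean of HSP90AB1 went from 6181 CPM in control libraries to 7683 CPM in knockdown libraries. All genes of the bins together summed to 29023 to 31046 CPM in control and 33106 to 33723 CPM in knockdown libraries. CHCHD2, at -0.12, and SNORA104, at 0.14, did not pass. The call of COX4I1 was lost under several settings, among them no filter on low counts, no kit term, the Ligation libraries alone and the Scramble libraries added.

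HBE1, which encodes the epsilon globin of embryonic red cells, stood out among the abundant genes (chr11:5268345-5269945). Its level was 73.6, 65.4, 69.3 and 65.0 CPM in control replicates 1 to 4 and 225, 211, 202 and 224 CPM in knockdown replicates 1 to 4. Every knockdown library was above every siNTC5 control, with a log2 change of 1.66 ± 0.05 (SE) and an edgeR adjusted p of 9.88e-15. The 2 nontargeting Scramble libraries, scaled together with the other 8, stood at 188 and 173 CPM, nearer to the knockdown libraries than to the siNTC5 controls. With them added as controls the log2 fold change was 1.19 (edgeR adjusted p 0.0143). Globin genes resemble each other, and reads could be split between them. HBB, the adult beta globin, averaged under 1 CPM.

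Of the 922 tested genes of the bins, 305 did not pass an adjusted p of 0.05 in edgeR after the knockdown. A total of 376 (40.8%) were higher, against a background of 35.5% of all 13933 tested genes, and 241 (26.1%) were lower, against a background of 36.1%. With a log2 fold change of at least 1 as well, 170 (18.4%) were higher against 7.47%, and 83 (9.0%) were lower against 8.28%. The median log2 fold change was 0.15, against -0.004 over all tested genes, with quartiles of -0.34 and 0.71. Computed from each knockdown library against the controls of its kit, the median was 0.156, 0.153, 0.109 and 0.147 in replicates 1 to 4. Protein-coding genes had 332 higher and 224 lower of 811, and long noncoding RNAs 32 higher and 11 lower of 76. The median of the bins changed with the low-count filter and was 0.083 over the 562 genes with a mean of at least 50 counts, where 241 were higher and 185 lower. It was 0.074 when genes were assigned by transcription start or by any overlap.

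The on-lamina H3K27me3 bins, named by control lamin B1, had a higher median, 0.41 over 186 tested genes with 95 higher and 31 lower. Bins with neither had -0.02 over 10803. Cut into 5 equal groups of average expression over all tested genes, the genes of the kept bins had medians of 0.41, -0.06, 0.10, 0.04 and 0.23 from lowest to highest. Each was above the median of all tested genes of its group, which were 0.21, -0.13, -0.11, -0.01 and 0.07. Of the 922 genes, 387 were in the lowest group and 67 in the highest. These medians are descriptions without a test, and they include the genes that were tested because they were higher in the knockdown.

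**Figure D3:**
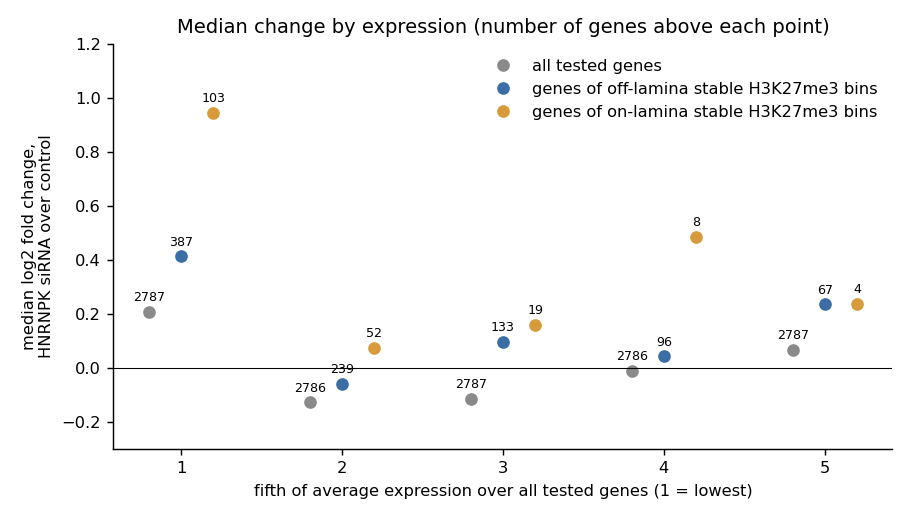
Median log2 fold change (HNRNPK siRNA over control) in 5 groups of average expression, for all tested genes and for genes of off-lamina and on-lamina stable H3K27me3 bins, with the number of genes above each point. In the lowest group the off-lamina median is 0.41 (387 genes) and that of all genes 0.21. Genes that were tested because they were higher in the knockdown are included.

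Genes in bins that gained H3K9me3 domains were few. Of 240 counted genes there, 40 were tested, 15 higher (37.5%, against the background of 35.5%) and 8 lower (20%, against 36.1%), with a median log2 fold change of 0.12. For genes of the bins without H3K9me3 in either list the median was 0.14, with 334 higher and 221 lower of 822. The 9 tested genes in bins with control H3K9me2 had 6 higher (66.7%), 1 lower (11.1%) and a median of 1.27. Their median average log2 CPM was 0.147. At that level a gene can be tested because it was higher in the knockdown, as FLG was, so these values are no independent measure of direction. The difference between these small groups was not tested.

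The 10 largest rises were taken among called genes of the bins whose average log2 CPM reached 1 and whose groups did not overlap. Separation of the groups is therefore part of the choice. All 10 were at low levels in control cells, which a large fold rise favours. Called genes below that average had larger fitted values in some cases, such as 5.25 for ALDH1A2 and 4.58 for CNDP1, which were picked after their values were seen. FGD5, which activates the GTPase CDC42 and is known from endothelial and blood stem cells, lies at chr3:14810688-14934571. Its level was 0, 0.0418, 0.133 and 0.219 CPM in control replicates 1 to 4 and 5.8, 4.23, 5.82 and 7.83 CPM in knockdown replicates 1 to 4. The control libraries together held 7 reads of FGD5, so its log2 change of 5.84 ± 0.35 (SE; adjusted p 4.71e-11, edgeR) depends on the prior count and its size is loosely set. VWA2, an extracellular matrix protein with von Willebrand factor A domains, was at 0.178, 0, 0.133 and 0 CPM in controls, 5 reads in all, and at 5.87, 5.94, 3.79 and 5.52 CPM in the knockdown (chr10:114239254-114294500). Its fitted log2 change was 6.14 ± 0.40 (SE). Its body overlaps AFAP1L2, which itself rose by 2.80 on the log2 scale, so reads in the overlap are uncertain. In FGD5 and VWA2 the lowest knockdown library was many times the highest control.

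IKZF3 encodes Aiolos, a zinc finger transcription factor of lymphocytes, and lies at chr17:39757715-39864312. It was at 0.237, 0.376, 0.333 and 0.383 CPM in control replicates 1 to 4 and at 6.13, 6.98, 10.5 and 8.32 CPM in knockdown replicates 1 to 4. All 4 knockdown libraries were above all controls, which the choice of genes required, and the log2 change was 4.51 ± 0.22 (SE; adjusted p 3.66e-12, edgeR). Knockdown H3K9me3 domains covered 65.0% of its body and control domains none. ST8SIA5, a sialyltransferase that builds gangliosides of the nervous system, went from 0.237, 0.251, 0.133 and 0.328 CPM to 5.21, 7.28, 8.85 and 9.23 CPM, a log2 change of 4.90 ± 0.25 (SE). SNCAIP, which encodes the alpha-synuclein partner synphilin-1, went from 0.119, 0.251, 0.333 and 0.164 CPM to 4.94, 5.87, 3.71 and 4.12 CPM, and its promoter window is printed above. Neither pair of groups overlapped, which the choice of genes required.

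CREB5 was the one tested gene past a log2 change of 1 in the run of 29 bins on chromosome 7. It went from 0.711, 0.752, 0.799 and 1.2 CPM in control replicates to 7.58, 10.6, 10.6 and 8.74 CPM in knockdown replicates, a log2 change of 3.42 ± 0.20 (SE; adjusted p 2.23e-11, edgeR). CREB5 stood at 2.99 and 3.04 CPM in the Scramble libraries, above every siNTC5 control. With them added as controls its log2 change was 2.66 (adjusted p 0.00138, edgeR). Its neighbours moved little: CPVL, a carboxypeptidase, rose by 0.41 on the log2 scale, PRR15 fell by 0.78, and CHN2 stood at 0.29 without passing. In the longest run MSX2 rose by 0.33 and SFXN1 fell by 0.09, while DRD1 and HRH2 did not pass. ALDH4A1, an enzyme of proline breakdown, fell by 0.61 in the run with PAX7. METTL3, which writes N6-methyladenosine on RNA, fell by 0.85 in the run on chromosome 14. With the Scramble libraries added, METTL3 and CPVL no longer passed (adjusted p 0.369 and 0.0948 in edgeR), and SFXN1 stopped passing under several settings, the replicate block included. MSX2 and PRR15 did not pass in the TruSeq libraries alone or without the kit term.

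The other four of these 10 rises were SH2D4B, LOC339666, C3orf20 and FBLN2. SH2D4B, an SH2 domain protein, rose from between 0.119 and 0.400 CPM over the 4 controls to between 3.71 and 5.64 CPM over the 4 knockdown libraries. The long noncoding RNA LOC339666 rose from between 0.333 and 0.474 to between 4.22 and 4.97 CPM. C3orf20 rose from between 0.415 and 1.42 to between 7.28 and 10.9 CPM, and FBLN2, the matrix protein fibulin-2, from between 0.133 and 0.766 to between 2.82 and 7.42 CPM. Their log2 fold changes were 4.13, 3.51, 3.44 and 3.43, with standard errors from 0.24 to 0.31 and adjusted p up to 8.62e-09 in edgeR. C3orf20, FGD5 and FBLN2 lie near each other on chromosome 3, at chr3:14675141-14773036, chr3:14810688-14934571 and chr3:13549125-13638404.

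**Figure D4:**
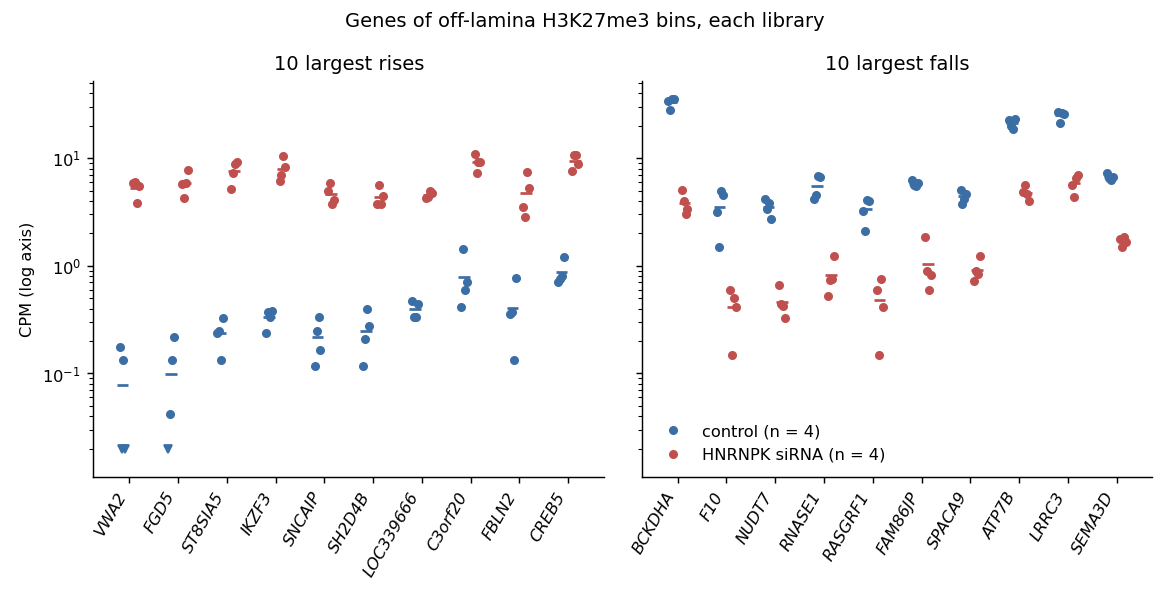
CPM on a log axis in each library for the 10 genes of the bins that rose most and the 10 that fell most among those with an average log2 CPM of at least 1; points are libraries, short lines are means of 4, and triangles at the bottom are libraries at 0 counts. The 20 genes were chosen without overlap of the groups, so the separation of knockdown points (red) and control points (blue) was fixed by the choice.

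The 10 largest falls were chosen with the same average level and the same separation of groups. That choice requires expression in control cells. BCKDHA, a subunit of the dehydrogenase that breaks down branched-chain amino acids, lies at chr19:41397818-41425002. It was at 34.3, 27.8, 35.4 and 35.0 CPM in control replicates 1 to 4 and at 5.01, 4.01, 3.03 and 3.38 CPM in knockdown replicates 1 to 4. That is a log2 change of -3.07 ± 0.13 (SE; adjusted p 4.32e-13, edgeR). The copper transporter ATP7B (chr13:51932669-52012132) went from 22.4, 20.0, 18.7 and 23.2 CPM to 4.81, 5.64, 4.64 and 4.04 CPM, a log2 change of -2.14 ± 0.12 (SE). LRRC3, a leucine-rich repeat membrane protein (chr21:44455510-44462196), went from 26.9, 21.3, 26.4 and 25.7 CPM to 5.6, 4.38, 6.49 and 7.0 CPM, a log2 change of -2.10 ± 0.11 (SE). In the Scramble libraries LRRC3 stood at 11.8 and 10.9 CPM, between the siNTC5 and knockdown libraries. With them added as controls its log2 change was -1.87. BCKDHA stood at 66.2 and 62.9 CPM there, above every siNTC5 control, and ATP7B at 21.7 and 19.4 CPM. The promoter of LRRC3 lies in a kept bin, while those of BCKDHA and ATP7B lie outside and the bins cover the body.

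Coagulation factor X, encoded by F10, fell from 3.14, 1.5, 5.0 and 4.54 CPM to 0.593, 0.149, 0.506 and 0.412 CPM, a log2 change of -2.98 ± 0.35 (SE). NUDT7, a peroxisomal hydrolase of coenzyme A, fell from between 2.74 and 4.15 CPM to between 0.330 and 0.659 CPM, and SPACA9, a protein of sperm and cilia, from between 3.72 and 5.1 CPM to between 0.725 and 1.24 CPM. SPACA9 overlaps AK8, which had a log2 change of -2.37, so reads in the overlap are uncertain. The windows of F10, NUDT7 and RNASE1 are printed above. The secreted ribonuclease RNASE1 fell from between 4.21 and 6.86 to between 0.527 and 1.24 CPM and the Ras activator RASGRF1 from between 2.09 and 4.06 to between 0.149 and 0.759 CPM. The axon guidance gene SEMA3D fell from between 6.33 and 7.23 to between 1.49 and 1.85 CPM, and the pseudogene FAM86JP, whose reads could come from its relatives, from between 5.46 and 6.28 to between 0.590 and 1.85 CPM. The log2 fold changes of these 7 genes ran from -2.98 to -1.98, and their adjusted p were at most 3.44e-07 in edgeR.

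Among the developmental factors of the bins, many had too few counts to be tested and those that changed went both ways. Of all coding genes of the bins 811 of 2235 were tested. Of the 40 homeobox genes outside the HOX clusters 15 were tested, with 5 higher, 3 lower and a median log2 fold change of 0.08. Over all tested genes 35.5% were higher and 36.1% lower, so the share called higher was near the background. ALX4, a factor of skull and limb patterning, went from 0.415, 0.418, 0.999 and 1.04 CPM in controls to 2.57, 3.05, 5.23 and 3.38 CPM in the knockdown, a log2 change of 2.34 ± 0.25 (SE; adjusted p 1.30e-07, edgeR). POU2F3, the master factor of tuft cells, rose by 1.57 ± 0.30 (SE). The neighbouring genes SIX2 and SIX3 moved apart: SIX2, a factor of kidney progenitors, rose by 1.39, and SIX3, a forebrain and eye factor, fell by 1.12. Neither passed within the TruSeq libraries alone. HOXC13, a factor of hair and nails, fell from between 4.51 and 6.13 to between 1.63 and 2.55 CPM, by 1.22 on the log2 scale.

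Forkhead factors had 4 tested of 14, with 2 higher and 2 lower. FOXL1, known from the mesenchyme under the gut epithelium, went from 1.96, 2.0, 4.4 and 4.16 CPM to 0.725, 0.371, 1.01 and 1.07 CPM, a log2 change of -1.94 ± 0.24 (SE). FOXD4 rose by 1.29 and FOXD2 fell by 1.23, the latter without passing in the TruSeq libraries alone. Of GATA factors 2 were tested and 1 was higher, with a log2 change under 1. No neural basic helix-loop-helix factor, SOX gene, keratin or olfactory receptor of the bins had enough counts to be tested.

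Of 37 channel genes of the bins 16 were tested, 8 higher and 1 lower, with a median log2 fold change of 0.45, against the background of 35.5% higher and 36.1% lower. All 56 tested channel genes, wherever they lie, had 19 higher and 19 lower, and the difference was not tested. KCNJ9, an inward-rectifying potassium channel subunit of neurons, rose from between 0 and 0.292 to between 0.843 and 2.64 CPM, and the calcium channel CACNA1D from between 1.2 and 1.8 to between 3.79 and 6.31 CPM. The potassium channel KCNC1 rose by 1.26 on the log2 scale. The orphan receptor GPR83 rose from between 0.821 and 1.46 to between 5.05 and 5.41 CPM, IL16, a chemoattractant of T cells, by 2.80, and the ephrin receptor EPHA8 by 1.06. Of 24 zinc finger genes 20 were tested, 11 higher and 3 lower, while all 337 tested zinc finger genes had 186 higher and 45 lower, a like share of higher calls; ZNF648 rose by 1.30, ZNF697 by 1.01, and ZNF862 fell by 1.47. EPHA8 did not pass in the TruSeq libraries alone, nor ZNF648 in the Ligation libraries alone. ZNF697 had an adjusted p of 0.125 in edgeR with the Scramble libraries added, which stood at 32.6 and 33.5 CPM against a knockdown mean of 31.1 CPM.

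**Figure D5:**
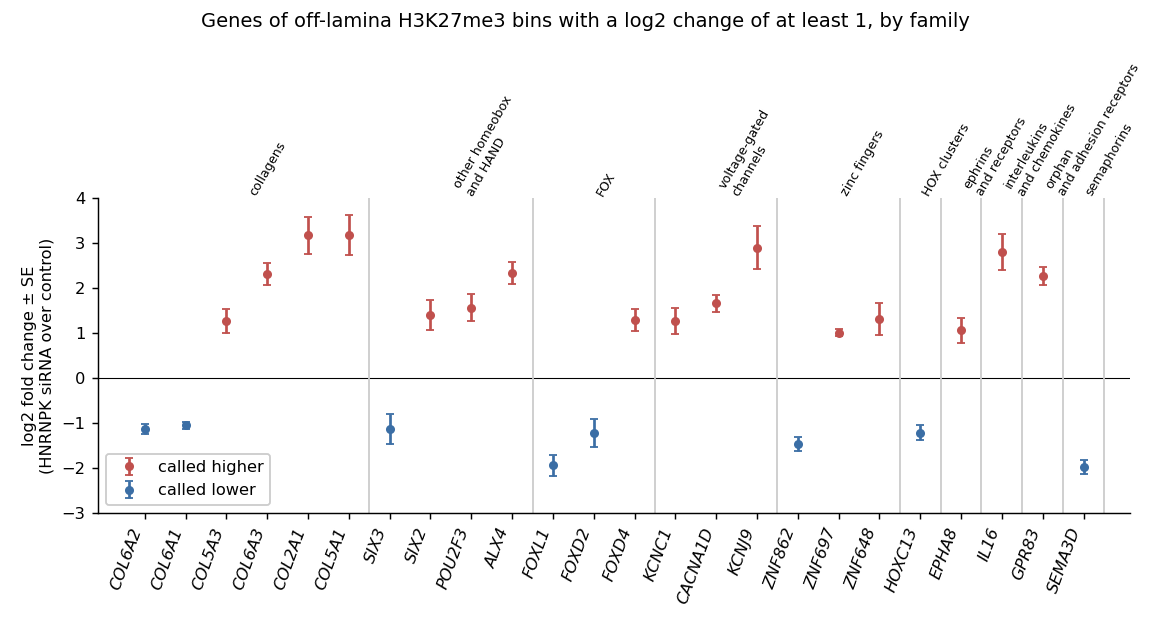
Log2 fold change with its standard error (HNRNPK siRNA over control, n = 4 each) for tested genes of the bins that belong to a listed family, passed at an adjusted p under 0.05, changed by at least 1 and are reported here. Collagen genes stand on both sides of 0, with COL6A1 and COL6A2 lower and COL2A1, COL5A1, COL5A3 and COL6A3 higher.

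The collagen genes split within the family. Of 11 in the bins 7 were tested, 4 higher and 2 lower, and all 22 tested collagen genes had 9 higher and 9 lower. COL5A1, of fibrillar collagen V, went from 0.119, 0, 0.400 and 0.219 CPM in control replicates 1 to 4 to 1.25, 1.11, 1.69 and 2.14 CPM in knockdown replicates 1 to 4, a log2 change of 3.17 ± 0.44 (SE; adjusted p 3.22e-06, edgeR). COL2A1, the collagen of cartilage, went from between 0.0418 and 0.438 to between 1.6 and 2.14 CPM, and COL5A3 rose by 1.27. COL6A3, whose product pairs with those of COL6A1 and COL6A2 in collagen VI, rose by 2.32 ± 0.24 (SE). It did not pass once the Scramble libraries were added (edgeR adjusted p 0.164), and those libraries stood at 7.6 and 4.98 CPM against a knockdown mean of 6.27 CPM.

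COL6A1 and COL6A2, neighbours on chromosome 21, fell. Their control levels per kb of gene body were 5.66 and 2.67 CPM, against at most 0.0181 CPM (COL5A3) among the 4 collagens that rose. COL6A1 was at 118, 79.5, 168 and 162 CPM in control replicates and at 45.4, 43.2, 85.3 and 83.1 CPM in knockdown replicates, a log2 change of -1.05 ± 0.09 (SE; adjusted p 2.92e-09, edgeR). COL6A2 was at 79.8, 48.8, 126 and 116 CPM and 30.7, 27.1, 59.9 and 51.5 CPM, a log2 change of -1.13 ± 0.11 (SE). In both genes the Ligation libraries (replicates 3 and 4) were higher than the TruSeq libraries of the same group, and the groups overlapped over all 8 libraries, with 2 of 4 knockdown libraries below every control. Within each kit both knockdown libraries were below both controls, and the log2 fold changes of COL6A1 were -1.14 in the TruSeq and -0.98 in the Ligation libraries. Over all genes, 18 of 13933 (0.129%) passed for an interaction of treatment and kit, and no gene named here was among them.

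Genes of 1 run went the same way in some runs and both ways in others. Of the 1490 runs 607 held a tested gene and 113 held at least 2 called genes. In 38 of the 113 all called genes were higher, in 20 all were lower, and in 55 they went both ways. Over all called genes of the bins 60.9% were higher (376 higher and 241 lower), so called genes of a run can share a direction without any link. The counts were not tested against that share and are no measure of shared change within runs.

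The tested Polycomb genes that make and read the mark lie outside the bins. Of 14 PRC2 genes 12 were tested, with 3 higher, 5 lower and none past a log2 change of 1. The catalytic subunit EZH2 stood at 103 ± 12.9 CPM in controls and 104 ± 7.04 CPM in the knockdown (SD, n = 4 each), a log2 change of 0.02 ± 0.06 (SE). EED, SUZ12 and EZH1, at 0.00, -0.01 and -0.02, did not pass either. Among accessory subunits MTF2 rose by 0.57 and PHF1 fell by 0.43; PHF1 did not pass in the TruSeq libraries alone or with the Scramble libraries added. Of 23 PRC1 genes 21 were tested, with 9 higher and 7 lower, 2 of them past a log2 change of 1. The reader CBX7 fell by 1.00 and SCMH1 by 1.18, while BCOR rose by 0.69. The demethylase KDM6A rose by 0.65, and KDM6B stood at 0.06 without passing.

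HNRNPK itself was at 22.4% of its control level in the knockdown libraries (884 to 199 CPM). Total counts ran from 14810376 to 23633851 in control libraries and from 12107280 to 15255556 in knockdown libraries. Of 10 markers of colon epithelium 6 averaged at least 1 CPM, and CDX1, VIL1, CEACAM5 and LGR5 did not; their summed level was 2696 to 3113 CPM in controls and 4403 to 5442 CPM in the knockdown. Fibroblast markers, 1 of 5 at that level, summed to 44.6 to 73.3 CPM and 75.4 to 122 CPM, with COL1A2, COL3A1, DCN and PDGFRB under 1. Blood markers (0 of 5) summed to 0.274 to 0.593 CPM in controls and 0.725 to 0.906 CPM in the knockdown, beside the rise of IKZF3 and HBE1. Endothelial markers (1 of 4) summed to 0.821 to 1.33 and 1.93 to 3.69 CPM, beside the rise of FGD5. The part of these cell types in the results was not tested.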

How the data were processed

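RNA and chromatin of HCT116 cells were compared by siRNA group as the labels give it. Gene counts were deposited by the authors as whole numbers per gene symbol. The submitters' processing notes name STAR 2.7.1a, featureCounts and Subread 2.0.6 with hg38 for RNA; for the Scramble tables they name DESeq2 and both hg19 and hg38. For ChIP they name bcl2fastq 2.20, fastp 0.23.2, Bowtie2 2.5.1 and deepTools 3.1.3. The deposited domain lists carry a score per domain; the caller, the use of input, the pooling of replicates and the unit of the score are not given in the sources used here. Domain edges fall on steps of 5 kb.

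Counts were tested with edgeR 4.0.16 (R 4.3.3; filterByExpr, TMM, quasi-likelihood test, Benjamini-Hochberg over all 13933 genes) in a model with kit and treatment. A gene belonged to the bins when at least 50% of its RefSeq body (GRCh38.p14) did; 97.7% of names had a position. Named genes were the 10 largest rises and falls among genes whose average log2 CPM reached 1 without overlap of groups, family genes with a log2 change of at least 1, genes of the 5 longest runs, the 5 most abundant genes per kb, and Polycomb genes. A few genes that the rule names are not reported here, though counts include them. The bins, the lists and this rule were chosen with earlier results of these data known. Replicate numbers pair the libraries by correlation (r = 0.1004, 0.4246, 0.3365 and 0.2653 across genes, for replicates 1 to 4), which the shared kit gives as well: with kit removed r was -0.191, -0.156, -0.281 and -0.252. Total counts limit what low genes can show. Alternatives were other scalings, filters, tests, kits, left-out libraries, bin sizes, H3K27me3 shares, lamin margins and gene assignment; assignment by transcription start was added after seeing the data. The fit was tested on simulated counts.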

Additional observations from a re-analysis of the deposited data

Results flagged for a closer look

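In 3 of the 184 groups of 4 libraries looked at for the named genes, 1 library stood apart from the other three. Chance alone does so in about 1 in 20 groups. BCKDHA was lowest in control replicate 2, at 27.8 CPM, with the other controls between 34.3 and 35.4 CPM; all were far above the knockdown libraries. EZH2 was highest in control replicate 2, at 122 CPM. PHF19, an accessory PRC2 subunit, was lowest in control replicate 4, at 63.7 CPM.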

How the results depend on the processing

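The median log2 fold change of the tested genes of the bins, 0.15, kept its sign under every alternative run. It was 0.453 with no filter on low counts and 0.083 with a mean of at least 50 counts, 0.185 under upper-quartile normalisation, 0.187 in the TruSeq libraries alone and 0.123 with the Scramble libraries added. It was 0.177 with bins of 25 kb, 0.199 with a minimum H3K27me3 share of 80%, and 0.0742 or 0.0739 with genes assigned by any overlap or by transcription start. Leaving out each library in turn gave 0.135 to 0.194, highest without siNTC5 replicate 3, with 360 to 389 genes higher and 229 to 244 lower. The counts of 376 higher and 241 lower changed by over 1.5 times with a mean of at least 50 counts (241 higher), with a log2 change of at least 1 (170 and 83) and with any overlap (581 and 454). With the replicate block in place of kit they were 368 and 237, and among the named genes the block changed the call of SFXN1 alone. Excluding bins within 100 kb of lamin B1 moved the H3K9me2 share to 1.71%. Over the other bin sizes, H3K27me3 shares and lamin margin, the control H3K9me3 share was 2.98% to 3.28% and the knockdown share 10.6% to 11.4%. With 1 list per condition, no spread between replicates stands beside these shifts. RYBP, higher among the 8 libraries, had a log2 fold change of -0.88 with the Scramble libraries added, without passing. Of 1606 values of single named genes under alternatives, 62 no longer passed, 12 newly passed and 38 changed sign without passing in either fit. The cause of these shifts was not tested. Domain lists without replicates, depth or signal per library limit the chromatin values to descriptions, and totals of 12107280 to 23633851 counts limit the precision of genes under 1 CPM.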

Other observations

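The runs with most genes called higher were picked after their values were seen, so their counts are descriptions and have no test. In a run of 11 bins at chr1:152000001-152550000, which holds genes of the outer skin layer, 3 of 4 tested genes rose, against the background of 35.5%. These 3 reached the filter's level of 0.665 CPM in at least 3 of 4 libraries of the knockdown group alone. They were tested because they were higher there, so the count is no measure of direction. TCHH, encoding the hair follicle protein trichohyalin, went from 0.237, 0.0835, 0.400 and 0.164 CPM in control replicates 1 to 4 to 1.52, 1.34, 0.843 and 0.742 CPM in knockdown replicates 1 to 4, a log2 fold change of 2.42 ± 0.44 (SE). HRNR (hornerin) went from between 0.266 and 0.474 to between 1.11 and 2.11 CPM and FLG (filaggrin) from between 0.266 and 0.919 to between 0.506 and 2.14 CPM. The abundant calcium-binding gene S100A11 of the same run stood at -0.01 on the log2 scale and did not pass. H3K9me3 domains covered 15.5% of this run in the control list and 78.2% in the knockdown list, and control H3K9me2 domains 34.5%.

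In a run of 9 bins at chr11:36250001-36700000, RAG1, the recombinase of antigen receptor genes, went from 1.6, 1.34, 1.67 and 1.7 CPM to 3.1, 4.31, 3.46 and 4.37 CPM, a log2 fold change of 1.28 ± 0.20 (SE). PRR5L rose by 2.29 and TRAF6 by 0.41 in the same run, COMMD9 fell by 0.29, and IFTAP did not pass. In a run of 10 bins at chr22:32300001-32800000, the noncoding RNAs RFPL3S and LOC339666 rose by 3.38 and 3.51, and RTCB, the tRNA ligase, rose by 0.60 from 85.8 ± 4.22 to 130.2 ± 5.45 CPM (SD, n = 4 each). FBXO7 beside them stood at 0.03 and did not pass. In a run of 3 bins at chr1:151700001-151850000, CELF3, OAZ3, TDRKH and MRPL9 rose by 1.08, 1.5, 0.35 and 0.14. Of the genes of these runs, PRR5L, RFPL3S, LOC339666 and CELF3 reached the filter's level in the knockdown group alone.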
